A study of Mus musculus with 6 samples.

Results

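Glutathione transferases and the other enzymes that make, use and recycle glutathione and thioredoxin were followed in the caput epididymis of wild-type and Adgrg2 knockout mice. Members were chosen by gene symbol alone, and the rule took 64 of the 24346 genes in the deposited table. It covers the cytosolic and microsomal glutathione transferases, gamma-glutamyl transferases, peroxiredoxins, every gene whose symbol starts with Txn, superoxide dismutases, the enzymes of glutathione synthesis and reduction, and Cat, Nqo1, Hmox1 and Srxn1. Glutathione peroxidases lie outside it. Of the 64 members, 55 reached a mean of 1 FPKM over the 6 libraries and were tested, and 2, Gsta1 and Mgst2, were listed at 0 in every library.

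Glutathione is a tripeptide that carries a reactive thiol. Transferases couple it to electrophiles, peroxidases use it to remove peroxides, and gamma-glutamyl transferases at the cell surface cleave it so that its amino acids can be taken up again. Thioredoxin and the peroxiredoxins form a parallel thiol system. In the epididymis these enzymes are known for limiting peroxide damage to spermatozoa, whose membranes are rich in unsaturated lipids, while some oxidation of sperm thiols is part of maturation.

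RNA was taken from the caput, the head of the epididymis, at 8 weeks of age. The wild-type group had 3 libraries, and so did the knockout (KO) group, labelled Adgrg2-/Y, which are males whose single X chromosome carries the mutant allele. The labels give neither the altered part of the gene nor whether each library was 1 animal, so p-values reflect only how these libraries vary, and part of that may be technical. The Adgrg2 product is a receptor of the adhesion family, found in efferent ductules and epididymal epithelium. It stood at 808, 850.1 and 841 FPKM across wild-type libraries, against 409.6, 324 and 328 FPKM in KO replicates 1, 2 and 3, so all KO libraries were lower but none lacked the transcript. Its log2 change was -1.24 ± 0.16 (SE, limma, adjusted p = 0.0579), which misses the threshold of 0.05. It passed under 6 of the 17 alternatives, among them removal of the length trend (0.0343) and leaving out KO replicate 1 (0.0137) or KO replicate 3 (0.015), with adjusted p spanning 0.00712 to 0.447. Expression is given as FPKM, a fragment count scaled for transcript length and library depth, as normalized by the authors. Log2 changes are KO minus wild-type on the log2(FPKM + 1) scale, which understates changes of genes with low values.

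The KO libraries differed from each other far more than the wild-type libraries did, and KO replicate 3 stood apart. Its mean correlation across genes with the wild-type libraries was 0.894, against 0.971 and 0.96 for KO replicates 1 and 2. In KO replicate 3 short transcripts (length taken as normalized count per FPKM) were high and long ones low: the median difference from wild-type was 0.67 on the log2 scale in the shortest of 10 equal bins of tested genes and -0.36 in the longest bin. The same medians were 0.05 and -0.01 in KO replicate 1 and -0.07 and 0.02 in KO replicate 2. The members have short transcripts, with 33 of the 55 tested ones in the shortest 3 bins. For the members whose groups did not overlap, the change is therefore also given with this trend removed from each library.

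**Figure D1:**
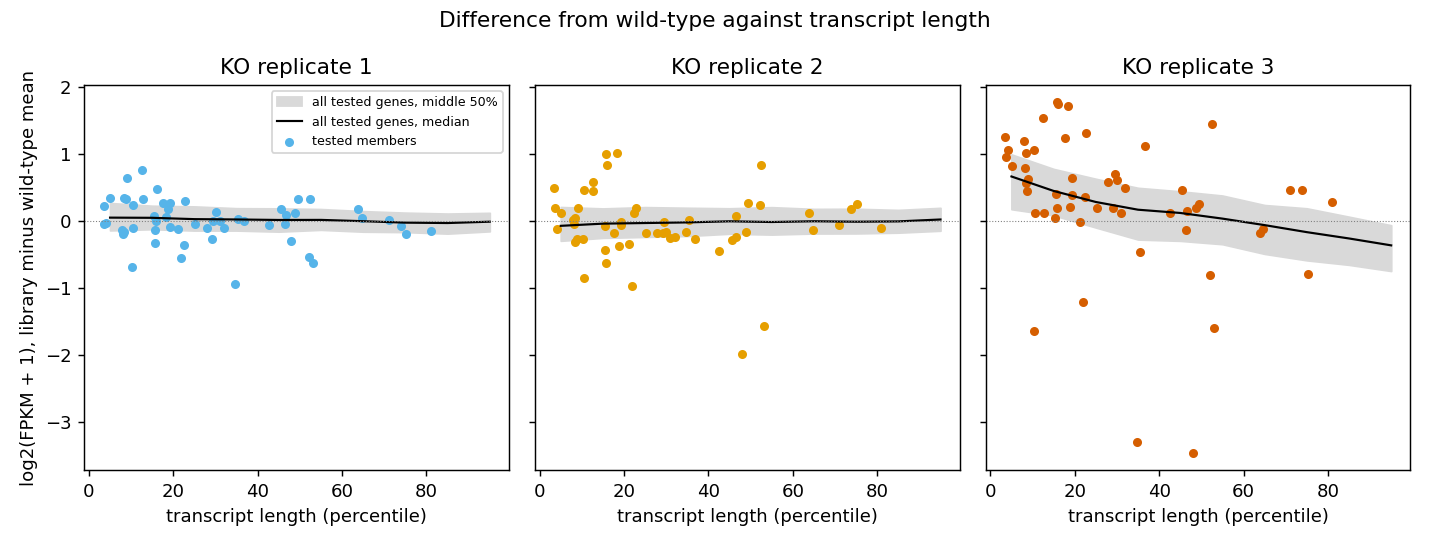
Difference of each KO library from the wild-type mean (log2 of FPKM + 1) against transcript length, ranked as a percentile among the 12799 tested genes; the line is the median of all tested genes in each of 10 bins, the band their middle 50%, and the points are the 55 tested members. The line is flat for KO replicates 1 and 2 and slopes from 0.67 to -0.36 for KO replicate 3.

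Cell type markers differed between the KO libraries as well. Summed markers of luminal epithelium were 1283 to 1364 FPKM across wild-type libraries, against 1699, 1620.5 and 2924 FPKM in KO replicates 1, 2 and 3. Of these 8 markers, 6 lay above every wild-type library in all KO libraries, beside 16.8% of all tested genes. Summed smooth muscle markers were 2189 to 2463 FPKM against 2434, 876 and 226 FPKM. Most of that sum was Actg2, at 1676 to 1911 FPKM against 2018, 306 and 176 FPKM. Acta2 was at 250 to 272 FPKM against 192, 249 and 20.5 FPKM. In KO replicate 2, Acta2, Cnn1 and Des were thus near wild-type, unlike Actg2. Summed fibroblast markers were 465 to 533 FPKM against 188, 414 and 37.4 FPKM. Markers of germ cells were 111 to 118 FPKM against 22.6, 8.42 and 1.99 FPKM. All 9 tested ones were below wild-type in all KO libraries, beside 16.1% of all tested genes. Of these, 3 passed the threshold, beside 0.172% of all tested genes called lower. Initial segment markers, from the most proximal caput, were 34750.2 to 36780.5 FPKM against 17988, 5549 and 2486 FPKM. Red blood cell markers were 79 to 82.8 FPKM against 5.41, 17.9 and 4.98 FPKM. For basal cells the sums were 204 to 210 FPKM against 209, 260 and 39.6 FPKM. Endothelial markers were 88.2 to 92.9 against 90.7, 70.8 and 32 FPKM. Narrow and clear cell markers were 102 to 107 against 106, 113 and 194 FPKM. That sum joins both directions: 5 of the 6 tested ones lay above every wild-type library in all KO libraries, beside the same 16.8%. The remaining one, Atp6v0d2, lay below, at 41.6 to 44.5 FPKM against 25.7, 20.5 and 39 FPKM. Immune cell markers were 89.4 to 100 against 64.5, 161 and 80.2 FPKM. Adipocyte markers were 1.49 to 10.6 against 2.21, 30.3 and 0.159 FPKM. No marker in these lists was listed at 0 in all libraries. In whole tissue, fewer cells of a type and less RNA per cell cannot be told apart, and the part of these differences in the results below was not tested.

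Not a single member reached an adjusted p under 0.05 (limma, adjusted over all tested genes), in either direction. The background was 0.25% of the 12799 tested genes, 0.0781% higher and 0.172% lower. Nor did any member pass once the length trend was removed, beside 0.0781% higher and 0.117% lower. At an unadjusted p under 0.05 there were 11 members, 7 higher and 4 lower, or 20% of those tested, beside 17.5% of all tested genes (9.46% higher and 8.08% lower). In 10 members all KO libraries lay above all wild-type libraries, 18.2% of those tested beside a background of 16.8%. In 5 members all KO libraries lay below, 9.09% beside a background of 16.1%. Without KO replicate 3 these counts were 12 above and 16 below, beside 22.1% and 22.7%. With the length trend removed they were 9 and 9, beside 16.8% and 18.2%. The log2 change was above 0 in 37 members, 67.3% beside 51.6% of all tested genes. Its median was 0.10 over the members and 0.01 over all tested genes. The members' median was 0.01 with the length trend removed and -0.04 without KO replicate 3.

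Those 15 members were Gstm2, Gstm4, Gstm6, Gstm7, Gstp1, Gsto1, Mgst3, Gsr, Prdx4 and Srxn1 above, and Ggt7, Txnrd3, Nqo1, Gstt1 and Sod3 below. With the length trend removed, Gsto1 and Prdx4 overlapped, while Prdx2 lay above and Txn1, Gstz1, Gsto2 and Txndc15 lay below. The spread among KO libraries limits every test: the median log2-scale SD of a tested member was 0.0581 among wild-type and 0.393 among KO libraries. In KO replicate 3 alone, 13 members lay at least 2-fold above the wild-type mean, 23.6% beside 7.27% of all tested genes, and 5 with the length trend removed, 9.09% beside 3.88%. Another 5 members lay at least 2-fold below, beside 12.2%, and 5 with the trend removed, beside 12.7%. KO replicate 3 was the highest of the 6 libraries for 39 members, 70.9% beside 40.7% of all tested genes. KO replicate 2 was the lowest for 22 members, 40% beside 20.7%. In KO replicate 1 no member was 2-fold above or below, beside 1.63% and 1.75%. In KO replicate 2 there were 2 above and 2 below, beside 1.21% and 2.89%.

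**Figure D2:**
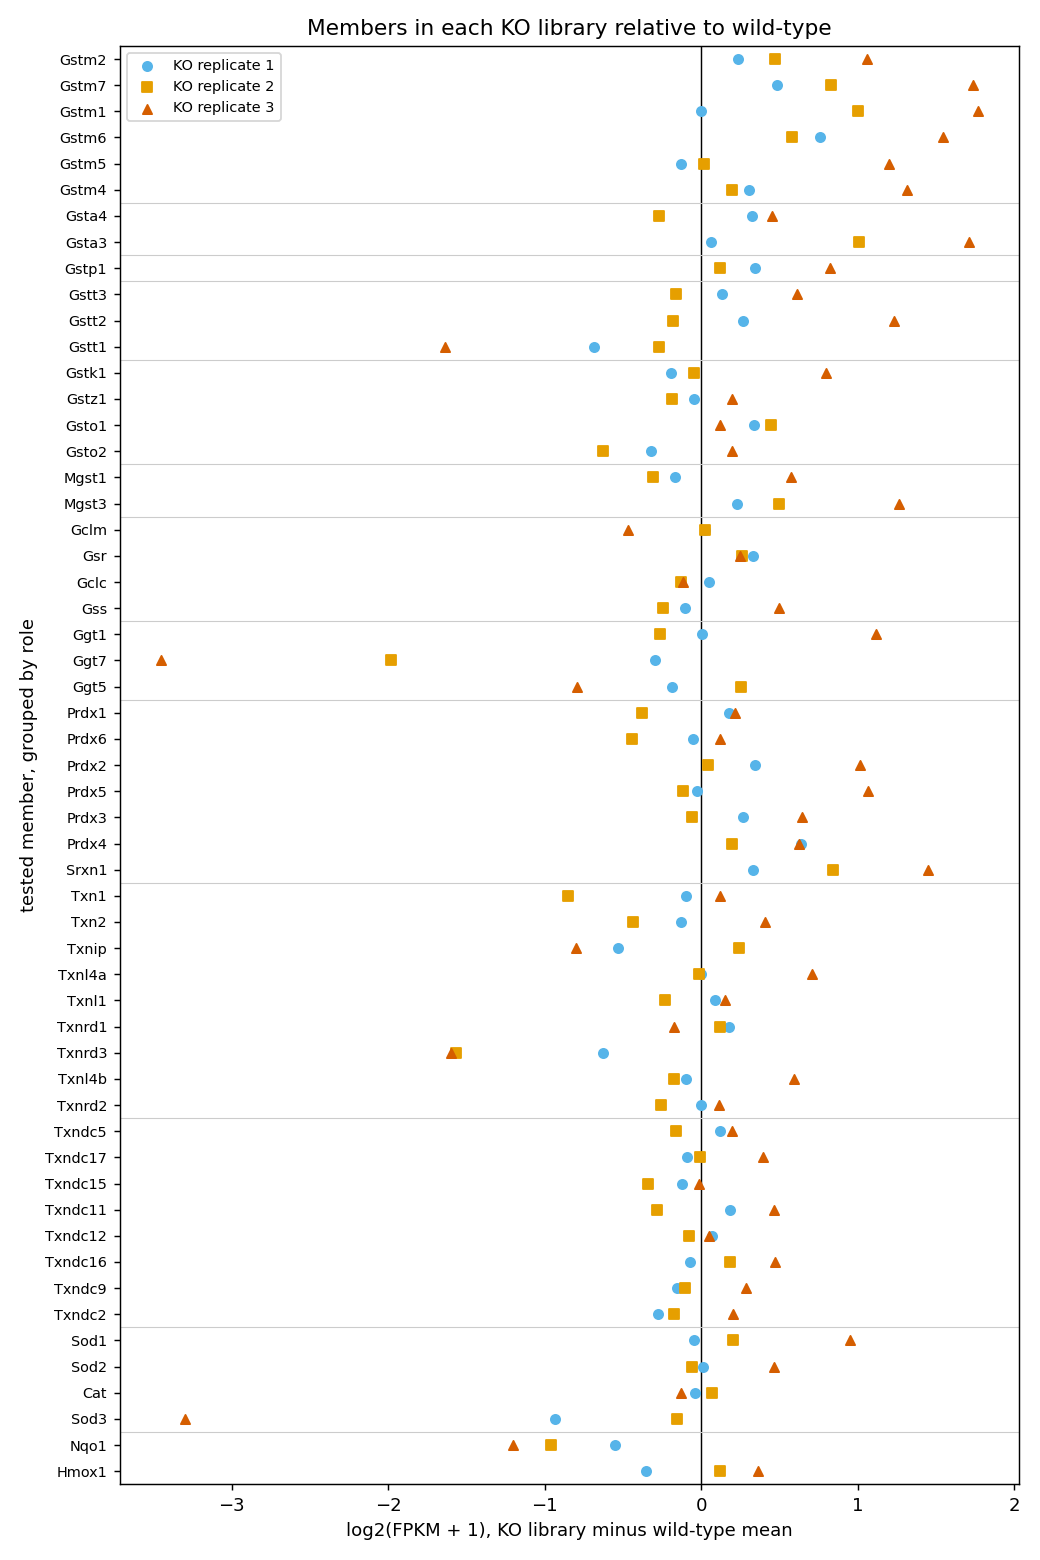
Difference of each KO library from the wild-type mean (log2 of FPKM + 1) for the 55 tested members, grouped by role and ordered by mean level within each group; each symbol is 1 KO library. Mu class members lie mainly to the right and Ggt7, Txnrd3, Nqo1, Gstt1 and Sod3 to the left, with KO replicate 3 usually the outermost.

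Many genes of this group are known in mice as targets of NRF2, a transcription factor that binds antioxidant response elements with the core TGACNNNGC. That core was searched on both strands of RefSeq promoter windows of 300 bases (250 before to 50 after the start, build GRCm38.p6), with no other motif searched. Of the members, 53 matched the promoter table by NCBI gene ID, and 15 of their 71 windows, 21.1%, held the core, beside 12.4% of all 32851 windows. A gene can have several windows, as Ggt1 does. Counted by gene, 13 of the 53 members held the core, beside 3781 of 27025 genes. A match is a run of letters, not a shown binding site. Of the members without overlap between genotypes, only Gstm7 and Srxn1 had a match found, and not every member had a window. Gclm, Mgst1, Prdx1 and Txnrd1, whose groups overlapped, had a match as well. A link between the core and the direction of change was not tested. The windows of 3 members whose KO libraries all lay on one side of wild-type are printed next, with matches in capitals. These are Gstm7 and Srxn1 above and Nqo1 below, and they do not stand for the other members. Gstm7 (chr3:107931565-107931864, minus strand) has the match TGACAAAGC beginning 129 bases before the start, in 1 of its 2 windows. Srxn1 (chr2:152105274-152105573, plus strand) has TGACCTAGC on the opposite strand, from base 29 after the start. Nqo1 (chr8:107403156-107403455, minus strand) has no match in this window. Bases more than 250 before the start were not searched for any gene, so a site further out would be missed.
Gstm7: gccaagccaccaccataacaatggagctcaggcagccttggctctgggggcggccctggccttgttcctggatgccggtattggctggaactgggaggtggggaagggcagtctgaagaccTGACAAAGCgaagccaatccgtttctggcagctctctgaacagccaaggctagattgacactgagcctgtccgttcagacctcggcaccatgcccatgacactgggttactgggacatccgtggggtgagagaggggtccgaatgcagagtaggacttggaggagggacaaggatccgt
Srxn1: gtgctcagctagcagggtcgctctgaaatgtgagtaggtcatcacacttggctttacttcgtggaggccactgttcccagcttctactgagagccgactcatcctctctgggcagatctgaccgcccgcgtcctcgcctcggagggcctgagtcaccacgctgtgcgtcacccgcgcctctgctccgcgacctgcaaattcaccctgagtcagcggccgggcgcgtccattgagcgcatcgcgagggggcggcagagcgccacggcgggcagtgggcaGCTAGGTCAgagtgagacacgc
Nqo1: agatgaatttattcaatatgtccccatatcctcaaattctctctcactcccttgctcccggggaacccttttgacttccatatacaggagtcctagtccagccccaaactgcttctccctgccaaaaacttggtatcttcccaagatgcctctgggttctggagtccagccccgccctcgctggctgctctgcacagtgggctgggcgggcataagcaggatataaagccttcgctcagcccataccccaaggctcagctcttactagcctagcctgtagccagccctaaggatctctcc

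The mu class held most of the transferase transcripts and, of the transferase classes, had the highest mean summed level in the KO relative to wild-type. In KO replicate 1 alone the pi class was higher, at 1.27 times its wild-type mean beside 1.24 times for the mu class. Mu enzymes are abundant cytosolic transferases, and their genes lie side by side on chromosome 3, in 149 kb from 107895854 to 108045179 (mm10). Their summed level was 1566 to 1597 FPKM across wild-type libraries, against 1951, 2437 and 4195 FPKM in KO replicates 1, 2 and 3. This was 66.7% to 67.3% of the FPKM of all transferases across wild-type and 71.4%, 77.1% and 77% across KO libraries. All 6 tested mu genes had a positive log2 change, with a median of 0.76, or 0.62 with the length trend removed. None was called, and for 2 the unadjusted p was under 0.05, beside 17.5% of all tested genes. KO replicate 3 was also the highest library for the summed luminal markers, whose part in the mu levels was not tested.

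Gstm2, the most abundant transferase transcript, stood at 689.99, 742 and 759.7 FPKM across wild-type libraries, against 861, 1011 and 1519 FPKM in KO replicates 1, 2 and 3. The groups did not overlap, and the KO values spread over a wider range than the gap between groups. Its log2 change was 0.59 ± 0.25 (SE, limma, adjusted p = 0.292), or 0.40 ± 0.12 with the length trend removed. Gstm7 (NCBI gene 68312, chromosome 3, 107926334 to 107931877), whose promoter window is shown above, was at 428, 391 and 401 FPKM in wild-type. In the KO it reached 569, 723 and 1359 FPKM, each above every wild-type library, a mean 2.17-fold higher. Its log2 change was 1.02 ± 0.33 (SE, limma, adjusted p = 0.221) and 0.86 ± 0.22 with the length trend removed (adjusted p = 0.122).

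Gstm6 (NCBI gene 14867, chromosome 3, 107938847 to 107953641) had the lowest p of the class. Wild-type libraries held 118, 125 and 125 FPKM and KO libraries 208, 184 and 359.8 FPKM, so KO replicate 1 was above KO replicate 2, unlike for Gstm2 and Gstm7. The log2 change was 0.96 ± 0.26 (SE, limma, adjusted p = 0.177), or 0.79 ± 0.13 with the length trend removed. The threshold was passed without KO replicate 3 (adjusted p = 0.0236) and with weights estimated for each library (0.0355), and its adjusted p spanned 0.0236 to 0.568 over all alternatives. Gstm1 gave another picture, with 195, 196 and 194 FPKM in wild-type against 195, 392 and 668 FPKM in the KO. Here KO replicate 1 lay within the wild-type range and the other KO libraries at 2.01 and 3.42 times the wild-type mean (adjusted p = 0.323).

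Gstm4 was the lowest of the tested mu genes, at 17.3, 16.4 and 17.1 FPKM across wild-type libraries, against 21.2, 19.5 and 43.6 FPKM across KO libraries (log2 change 0.60 ± 0.30, or 0.48 ± 0.21 with the length trend removed, limma, adjusted p = 0.344). Its groups did not overlap, but KO replicates 1 and 2 were close to wild-type. Gstm5 was at 116, 104 and 99.6 FPKM against 97.1, 108 and 245 FPKM, and only KO replicate 3 stood above wild-type. Gstm3 stayed below 0.3 FPKM in every library and was not tested. Mu genes resemble each other, and the sources used here do not say how reads that match several genes were counted. Of the 50-base stretches in GENCODE M21 transcripts, 19.9% of those of Gstm1, 8.3% of Gstm2 and 9.74% of Gstm6 also occur in another gene or pseudogene. For Gstm7 it was 0.532%, and for Gstm4 and Gstm5 none was shared, which leaves the levels of Gstm1, Gstm2 and Gstm6 less certain. The same limit holds outside the mu class for Sod1 (23.1%), Gstt3 (20.6%), Txnl4a (12.4%) and Prdx1 (8.99%), whose levels are given below.

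**Figure D3:**
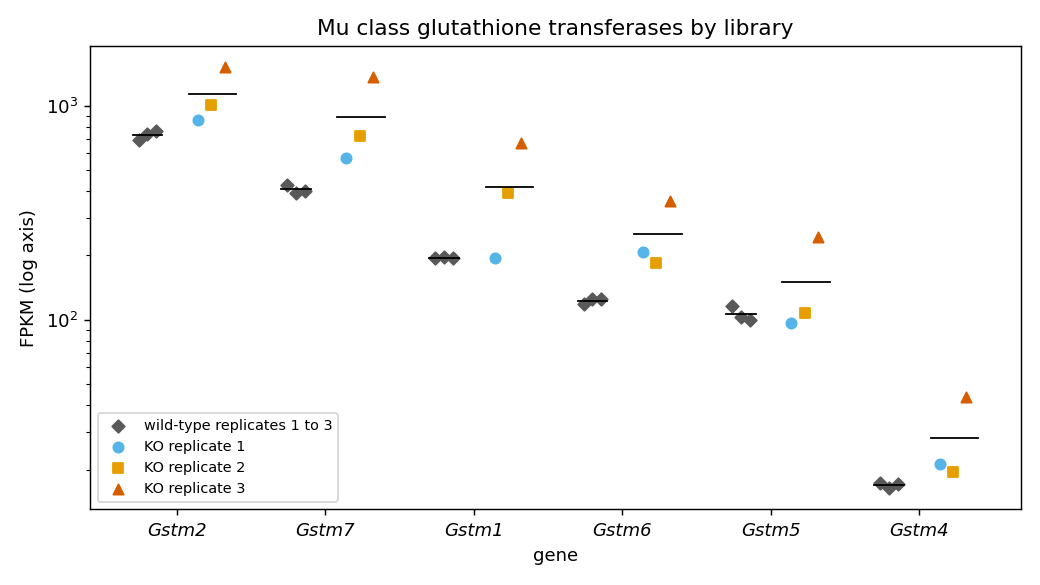
FPKM (log axis) of the 6 tested mu class transferases in each library, with wild-type libraries as diamonds, KO libraries as coloured symbols and a line at each group mean. KO replicate 3 is the highest library for every gene, and KO replicate 1 lies within the wild-type range for Gstm1.

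Among the other transferases the levels were mixed. Over all 18 tested transferases, 15 had a positive log2 change, beside 51.6% of all tested genes, and the median was 0.40. Once the length trend was removed, 12 of the 18 were positive and the median was 0.18. The summed FPKM of transferases was 2340.5 to 2395 for wild-type and 2734, 3161 and 5449 for KO libraries. In the alpha class, known for conjugating lipid peroxidation products, Gsta3 was at 26.3, 22.8 and 26.5 FPKM across wild-type libraries, against 26.2, 51.6 and 84.6 FPKM across KO libraries. As for Gstm1, KO replicate 1 was at the wild-type level and the other KO libraries were above it (adjusted p = 0.296). Gsta4, which acts on hydroxynonenal, was at 47.3, 43.8 and 45.2 FPKM against 57.2, 37.5 and 62.6 FPKM, with overlapping groups. Gsta2 was below 0.3 FPKM throughout.

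Gstp1, the main pi class enzyme, was at 84.5, 78.9 and 86.2 FPKM across wild-type libraries, against 106, 90.2 and 148 FPKM across KO libraries. The groups did not overlap, with a log2 change of 0.43 ± 0.19 (SE, limma, adjusted p = 0.313) and of 0.20 ± 0.07 with the length trend removed. Its near copy Gstp2 was below 0.8 FPKM, and 51% of the 50-base stretches of Gstp1 also occur in Gstp2, which leaves the split between them uncertain.

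The theta class, on chromosome 10, had KO levels on both sides of wild-type. Gstt1 (chromosome 10, 75783813 to 75798584) was at 19.2, 19.2 and 18.7 FPKM across wild-type libraries, against 11.5, 15.6 and 5.43 FPKM across KO libraries, below wild-type in every KO library (log2 change -0.87 ± 0.34, SE, limma, adjusted p = 0.264, or -1.05 ± 0.48 with the length trend removed). Its neighbour Gstt3 (chromosome 10, 75774117 to 75781422) was at 94.1, 96.5 and 100.04 FPKM against 106, 86.5 and 148 FPKM. Gstt2 was at 26.7, 29.4 and 31.4 FPKM against 35.2, 25.5 and 69.7 FPKM, also with overlapping groups. In KO replicate 3 the theta genes lay on opposite sides, with Gstt1 at 0.286 and Gstt2 at 2.39 times their wild-type means. Gstt4 held 0.0690, 0.159 and 0.587 FPKM in wild-type and was listed at 0 in each KO library.

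Among the 4 transferases of the omega, kappa and zeta classes, only Gsto1 had groups that did not overlap. Gstk1, of mitochondria and peroxisomes, was at 51.1, 45.2 and 48.6 FPKM across wild-type libraries, against 42.2, 46.6 and 84.7 FPKM across KO libraries. Gstz1, which also acts in tyrosine breakdown, was at 36.95, 38.99 and 37.5 FPKM against 36.6, 33.1 and 43.4 FPKM. Gsto1, an omega enzyme that reduces disulfides and dehydroascorbate, was at 7.45, 6.93 and 7.28 FPKM against 9.37, 10.2 and 7.93 FPKM, with no overlap (log2 change 0.30 ± 0.12, SE, limma, adjusted p = 0.262). Its groups overlapped once the length trend was removed (0.13 ± 0.22). Gsto2 was at 1.19, 0.858 and 1.43 FPKM against 0.718, 0.390 and 1.46 FPKM.

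The microsomal enzymes are membrane proteins unrelated in sequence to the cytosolic transferases. Mgst1, among the most abundant members, was at 367, 363 and 374 FPKM across wild-type libraries, against 328, 297 and 548 FPKM across KO libraries, so KO replicates 1 and 2 were below wild-type and KO replicate 3 above. Its share of all transferase FPKM was 15.5% to 15.6% for wild-type and 12%, 9.4% and 10.1% in the KO libraries. Mgst3 was at 20, 20.2 and 20.8 FPKM against 23.98, 29.1 and 50.1 FPKM, above wild-type in every KO library (log2 change 0.66 ± 0.26, SE, limma, adjusted p = 0.272). With the length trend removed it was 0.42 ± 0.12 (adjusted p = 0.155).

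**Figure D4:**
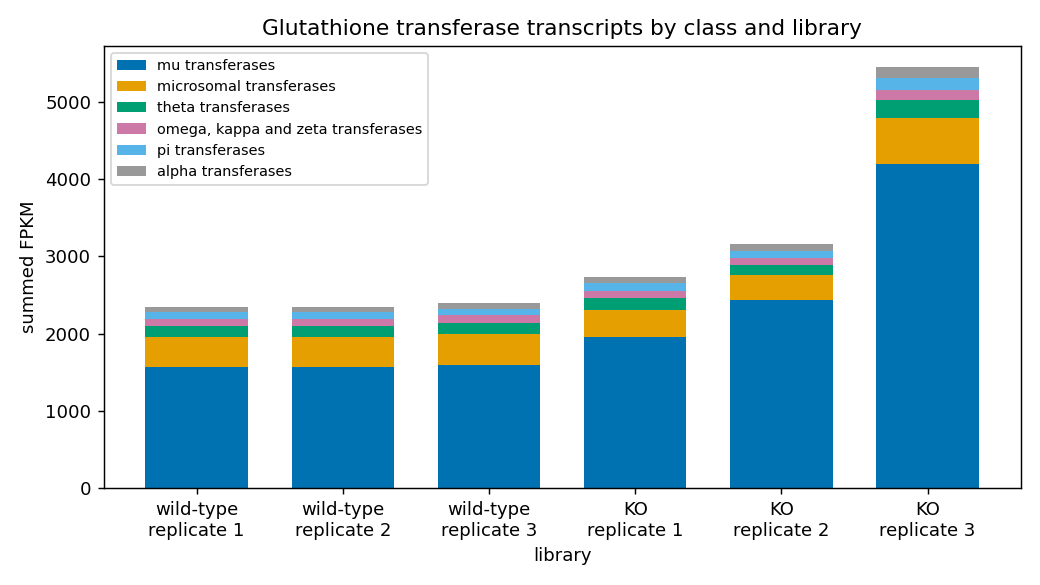
Summed FPKM of the glutathione transferase genes in each library, stacked by class. The stack reaches 2340.5 to 2395 for wild-type and 2734, 3161 and 5449 in KO replicates 1, 2 and 3, and the mu class makes up most of each stack.

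Glutathione synthesis was close to wild-type in most libraries, while the reductase was slightly higher. Gclc, the catalytic subunit of the rate-limiting ligase, was at 24.4, 24.03 and 24.3 FPKM across wild-type libraries, against 25.1, 22.1 and 22.3 FPKM across KO libraries, a log2 change of -0.07 ± 0.09 (SE). Gclm, the modifier subunit, was at 82.1, 84.1 and 83.2 FPKM against 84.5, 84.4 and 59.9 FPKM. KO replicates 1 and 2 matched wild-type within 3 FPKM of its mean, and KO replicate 3 was lower. Gss, the synthetase of the second step, was at 14.6, 14.1 and 13.2 FPKM against 12.96, 11.7 and 20.1 FPKM, with overlapping groups.

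Gsr, which returns oxidized glutathione to its reduced form, was at 24.4, 23.3 and 23.95 FPKM across wild-type libraries, against 30.3, 28.9 and 28.6 FPKM across KO libraries. It was the member with the most even KO values among those above wild-type, at 23.9 ± 0.552 FPKM for wild-type and 29.2 ± 0.899 FPKM for KO libraries (SD, n = 3). The log2 change was 0.28 ± 0.09 (SE, limma, adjusted p = 0.204, spanning 0.0633 to 0.612 over all alternatives). With the length trend removed it was 0.25 ± 0.07 (adjusted p = 0.159).

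The gamma-glutamyl transferases, which start the breakdown of glutathione outside the cell, had no common direction. Ggt7 (NCBI gene 207182, chromosome 2, 155490379 to 155514891), a family member whose enzyme activity is not established, was at 32.9, 35.7 and 35.7 FPKM in wild-type. It was at 28.1, 8.06 and 2.26 FPKM in KO replicates 1, 2 and 3, from just below wild-type to 15.4-fold below its mean. The log2 change of -1.91 ± 0.74 was the most negative of any tested member (SE, limma, adjusted p = 0.264, or -1.95 ± 0.77 with the length trend removed). The threshold was passed without KO replicate 1 (adjusted p = 0.0459), and its adjusted p spanned 0.0459 to 0.617 over all alternatives. The order of the KO libraries was also that of the summed initial segment, germ cell, smooth muscle and endothelial markers given above. Their part in the Ggt7 difference was not tested.

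Ggt1, the main active enzyme, was at 65, 58.1 and 62.4 FPKM across wild-type libraries, against 61.9, 51.3 and 135 FPKM across KO libraries, so only KO replicate 3 stood above wild-type (log2 change 0.28 ± 0.35, SE, limma, adjusted p = 0.659). Ggt5, which cleaves leukotriene C4, was at 1.28, 1.30 and 1.48 FPKM against 1.07, 1.81 and 0.355 FPKM. Ggt6 was below 0.4 FPKM and was listed at 0 in KO replicate 3.

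Peroxiredoxins, thiol enzymes that remove peroxides, were abundant and overlapped between genotypes except for Prdx4. Prdx1 was at 526, 521 and 542 FPKM across wild-type libraries, against 599, 407 and 614 FPKM across KO libraries, with KO replicate 2 the lowest library. Prdx6, the 1-cysteine enzyme, was at 328, 337 and 347 FPKM against 325, 248 and 367 FPKM. Prdx2 was at 202, 200.3 and 217 FPKM against 261, 213 and 418 FPKM. Prdx2 and Prdx5 were high in KO replicate 3 and near wild-type in KO replicate 2. Prdx5 was at 177, 169.7 and 179 FPKM against 172, 162 and 367 FPKM. Mitochondrial Prdx3 was at 63.9, 67.3 and 61.7 FPKM against 77.4, 61.6 and 101 FPKM, and Prdx6b was below 1 FPKM throughout.

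Prdx4, the peroxiredoxin of the endoplasmic reticulum, was at 33.96, 28.7 and 31.6 FPKM across wild-type libraries, against 49.3, 36 and 48.8 FPKM across KO libraries. All KO libraries were higher, by a log2 change of 0.48 ± 0.15 (SE, limma, adjusted p = 0.215). Its groups overlapped after removal of the length trend, and the change was then 0.29 ± 0.15.

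Srxn1 (NCBI gene 76650, chromosome 2, 152105524 to 152111376) encodes sulfiredoxin, which repairs overoxidized peroxiredoxins. Wild-type libraries held 15.7, 16.1 and 15.1 FPKM, and KO replicates 1, 2 and 3 held 19.9, 28.8 and 44.5 FPKM. The KO mean was 1.99-fold higher and each KO library was above each wild-type library. The log2 change was 0.88 ± 0.27 (SE, limma, adjusted p = 0.211, spanning 0.0503 to 0.588 over all alternatives). Its transcript is of middling length, at percentile 52.5 of the tested genes, and with the length trend removed the change was 0.85 ± 0.26.

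In the thioredoxin system the clearest difference was a low Txnrd3. Txnrd3 (NCBI gene 232223, chromosome 6, 89643988 to 89675529), a thioredoxin and glutathione reductase known in mice mainly from testis, was at 18.8, 17.8 and 18.6 FPKM across wild-type libraries, against 11.6, 5.56 and 5.41 FPKM across KO libraries. Each KO library was below each wild-type library, and the wild-type mean was 2.45-fold higher. The log2 change was -1.26 ± 0.27 (SE, limma, adjusted p = 0.139) and -1.29 ± 0.27 with the length trend removed. The threshold was passed without KO replicate 1 (adjusted p = 0.00488) and with library weights (0.0441), and its adjusted p spanned 0.00488 to 0.545 over all alternatives. The summed germ cell markers given above were also below wild-type in all KO libraries, by 5.01, 13.5 and 56.98 times. So were the summed initial segment, fibroblast and red blood cell markers. The part of any of these in the Txnrd3 difference was not tested.

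The other reductases overlapped between genotypes. Txnrd1, of the cytosol, was at 22.97, 22 and 25.2 FPKM across wild-type libraries, against 26.5, 25.5 and 20.6 FPKM across KO libraries, with overlapping groups. Txnrd2, of mitochondria, was at 5.14 ± 0.245 against 4.98 ± 0.767 FPKM (SD, n = 3).

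Thioredoxin itself, Txn1, was at 200.5, 209 and 206 FPKM across wild-type libraries, against 192, 113 and 223 FPKM across KO libraries, where KO replicate 2 alone was far below wild-type. Its log2 change was -0.28 ± 0.26 (SE). With the length trend removed it was -0.46 ± 0.17 (limma, adjusted p = 0.209), and all KO libraries then lay below wild-type. Mitochondrial Txn2 was at 86.2, 82.6 and 88.7 FPKM against 78.3, 63.1 and 114 FPKM. Txnip, which binds and inhibits thioredoxin, was at 94.5, 89.8 and 95.5 FPKM against 64.2, 111 and 53.1 FPKM, with KO replicate 2 above and the other KO libraries below wild-type. Txnl4a, a spliceosome protein with a thioredoxin fold, was at 46.8, 43.4 and 47.3 FPKM against 45.8, 45.3 and 75.3 FPKM. Txnl1 and Txnl4b overlapped between genotypes as well.

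None of the 8 tested Txndc genes, most of which encode thioredoxin-fold proteins of the endoplasmic reticulum or cytosol, had all its KO libraries on one side of all wild-type libraries. Their median log2 change was 0.03. Txndc5, a protein disulfide isomerase, was at 129, 128 and 129 FPKM across wild-type libraries, against 139.9, 115 and 147 FPKM across KO libraries. Txndc17 was at 57.8, 55.4 and 56.1 FPKM against 53.04, 56.1 and 74.5 FPKM. Both had KO values on either side of wild-type. Txndc15 was at 50.96, 50.9 and 52.2 FPKM against 47.1, 40.3 and 50.96 FPKM, and Txndc11 at 23.4, 28.9 and 26.2 FPKM against 29.8, 21.3 and 36.3 FPKM. The sperm thioredoxins were near their detection limit. Txndc2 was at 1.45, 1.03 and 1.21 FPKM against 0.841, 0.971 and 1.56 FPKM, and Txndc8 at 0, 0.145 and 0.537 FPKM in wild-type and listed at 0 in each KO library.

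Of the enzymes that act on superoxide and hydrogen peroxide, Sod1 and Cat overlapped between genotypes. Sod1, the cytosolic dismutase, was at 514, 499 and 520.3 FPKM across wild-type libraries, against 494, 587 and 988 FPKM across KO libraries, with KO replicate 3 the highest. With the length trend removed its log2 change was 0.12 ± 0.12, against 0.37 ± 0.27 as deposited. Mitochondrial Sod2 was at 28.3, 26.4 and 25.9 FPKM against 27.1, 25.7 and 37.5 FPKM. Catalase, Cat, was at 21.6, 23.7 and 21.4 FPKM against 21.5, 23.4 and 20.2 FPKM, and no KO library was more than 3 FPKM from the wild-type mean.

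Sod3, the secreted dismutase of the extracellular matrix, was at 16.2, 14.4 and 13.9 FPKM across wild-type libraries, against 7.25, 13.2 and 0.606 FPKM across KO libraries. KO replicate 2 was just below wild-type and KO replicate 3 24.5-fold below its mean (log2 change -1.46 ± 0.77, SE, limma, adjusted p = 0.359, or -1.54 ± 0.83 with the length trend removed). Without KO replicate 3 the log2 change was -0.55. The summed fibroblast, basal cell, red blood cell and adipocyte markers given above had the same order of KO libraries, with replicate 2 the highest and replicate 3 the lowest. Their part in the Sod3 difference was not tested.

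Nqo1 (NCBI gene 18104, chromosome 8, 107388225 to 107403205), a quinone reductase and a textbook NRF2 target, had the lowest p of all members. Wild-type libraries held 9.76, 9.57 and 9.23 FPKM and KO libraries 6.18, 4.40 and 3.57 FPKM, all below wild-type. The mean was 2.02-fold higher in wild-type, at 9.52 ± 0.270 FPKM for wild-type and 4.72 ± 1.33 FPKM for KO libraries (SD, n = 3). The log2 change was -0.91 ± 0.18 (SE, limma, adjusted p = 0.116) and -1.03 ± 0.24 with the length trend removed, so a short transcript was low in the library where short transcripts were mostly high. Leaving out KO replicate 1 gave an adjusted p of 0.0189, leaving out KO replicate 3 gave 0.0447 and library weights gave 0.0363, all past the threshold, and its adjusted p spanned 0.0189 to 0.539 over all alternatives. Hmox1, heme oxygenase 1, was at 6.11, 7.08 and 6.87 FPKM across wild-type libraries, against 5.01, 7.32 and 8.89 FPKM across KO libraries, with overlapping groups.

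**Figure D5:**
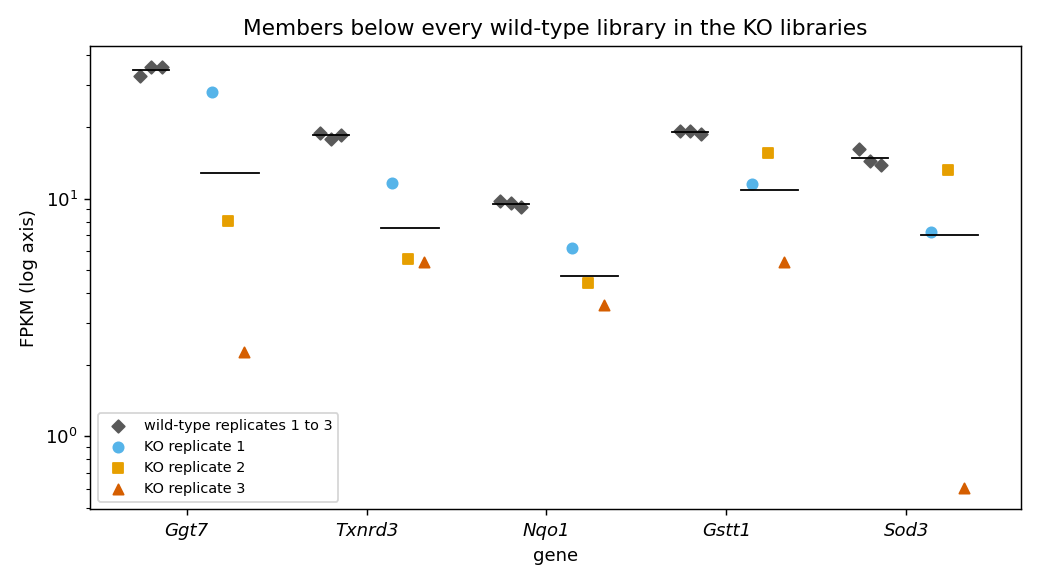
FPKM (log axis) by library of the 5 members for which every KO library lay below every wild-type library, with wild-type libraries as diamonds, KO libraries as coloured symbols and a line at each group mean. Nqo1 and Txnrd3 are low in all KO libraries, while Ggt7 in KO replicate 1 and Sod3 in KO replicate 2 lie just below wild-type.

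Beyond the members, 19 other known NRF2 target genes were tested and none passed the threshold (limma). An unadjusted p under 0.05 was found for 5, beside 17.5% of all tested genes. KO libraries lay above every wild-type library for 4 and below for 3, beside 16.8% and 16.1%. The median log2 change was 0.23, with the length trend in place. It was not computed with the trend removed, for this list or the later ones. Their most abundant members encode ferritin chains: Ftl1 was at 1808, 1779 and 1891 FPKM across wild-type libraries, against 1889, 2366 and 4816 FPKM across KO libraries, and Fth1 at 1158, 1116 and 1123 against 954, 1256 and 1713 FPKM. Among 12 tested regulators and partners of NRF2 none passed, 2 had an unadjusted p under 0.05 beside the same 17.5%, and the median was 0.05. Sqstm1, an autophagy receptor that binds KEAP1, was at 216, 215 and 216 FPKM against 199, 211 and 236 FPKM, and Nfe2l1, a relative of NRF2, at 78.2, 74.3 and 74.9 against 72.9, 77.1 and 89.7 FPKM. The gene of NRF2 itself, Nfe2l2, and its inhibitor Keap1 are named after their values were seen. Nfe2l2 was at 36.1, 35.3 and 34.4 FPKM against 36.4, 43.5 and 29.9 FPKM, and Keap1 at 22.4, 24.5 and 23.3 against 21.9, 18.9 and 23.02 FPKM, both overlapping.

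The wider glutathione pathway held no call either. Of 22 other tested genes of glutathione handling, 6 had an unadjusted p under 0.05 (limma), 3 lay above and 4 below every wild-type library, beside 17.5%, 16.8% and 16.1% of all tested genes. The median log2 change was 0.04. Its most abundant members were Lap3, a peptidase, at 708, 668 and 699.7 FPKM across wild-type libraries, against 712, 537 and 716 FPKM across KO libraries, and Slc3a2, the heavy chain of amino acid exchangers, at 327, 330.1 and 338 against 327, 202 and 291 FPKM. Slc7a11, the cystine importer that feeds glutathione synthesis, is named after its values were seen: it was at 7.73, 8.86 and 7.61 FPKM across wild-type libraries, against 6.99, 0.945 and 0.503 FPKM across KO libraries (log2 change -1.66 ± 0.61, SE, limma, adjusted p = 0.251). Its KO libraries were in the same order as those of Ggt7.

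Among the glutathione peroxidases, 7 were tested, none passed, 3 had an unadjusted p under 0.05 and 4 lay above every wild-type library. The median log2 change was 0.60, with the length trend in place here and for the next lists. For this and the next lists, the shares over all tested genes were 17.5% at that p, 16.8% above and 16.1% below. Gpx5 was at 38528, 33682 and 36279 FPKM across wild-type libraries, against 47219, 47377 and 59342 FPKM across KO libraries, and Gpx4 at 238, 239.7 and 233 against 186, 164 and 271 FPKM. Of the 9 enzymes that supply NADPH, 2 had an unadjusted p under 0.05, 4 lay above and 1 below every wild-type library, and the median was 0.21. G6pdx, the first enzyme of the pentose phosphate pathway, was at 107, 108 and 110.4 FPKM against 137, 111 and 116 FPKM, and Taldo1, transaldolase, at 135, 139 and 137 against 147, 114 and 205 FPKM. Among 12 tested oxidant-generating enzymes none had an unadjusted p under 0.05, 2 lay above every wild-type library, and the median was -0.04. Qsox1, a sulfhydryl oxidase, was at 52.5, 52.3 and 54.97 FPKM against 69.4, 47.2 and 38.95 FPKM, and Qsox2 at 35.6, 33.97 and 39.4 against 39.1, 48.8 and 84.7 FPKM.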

How the data were processed

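RNA came from RNeasy preparations, and sequencing libraries were stranded TruSeq mRNA, per the labels' protocols. The submitters' processing notes name TopHat2 2.1.1, Cufflinks 2.2.1 and the mm10 build. The annotation, strand setting, treatment of reads matching several genes and normalization method are each not given in the sources used here. Per the file headers, the authors deposited normalized FPKM and normalized count columns. The normalized counts, deposited as a signal rather than raw counts, summed to 18136864 to 21455984 per library.

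The 12799 of 24346 genes averaging 1 FPKM or more were tested with limma 3.58.1 in R 4.3.3 on log2(FPKM + 1): genotype as the only term, trended empirical Bayes variances, two-sided, Benjamini-Hochberg adjustment over all tested genes, threshold 0.05. Python 3.11.15 read the sequences and drew the plots. Transcript length was ranked by normalized count per FPKM, and the length trend removed by lowess (span 0.5). The fit was also run on simulated data, whose outcome is not given here, so no support is drawn from it. All 64 members took their positions from RefSeq GRCm38.p6 by gene ID.

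Named genes, by role: members without overlap between genotypes, up to 4 of highest mean FPKM per role, and the 2 of highest mean per pathway list. Gstm5, Prdx3, Txnrd1, Txnrd2, Txndc2, Txndc8, Nfe2l2, Keap1 and Slc7a11 fall outside this and were chosen after their values were seen. Members and lists were chosen with earlier results of these data known.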

Additional observations from a re-analysis of the deposited data

How the results depend on the processing

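The signs of the log2 changes of Adgrg2 and of the 15 members without overlap were kept under all 17 alternatives. No member passed under pseudocounts of 0.1 and 0.01, no filter, a minimum of 5 FPKM, both rescalings, moderation without the trend, the replicate block, normalized counts, or without the length trend. With library weights, which gave KO replicate 3 a weight of 0.0748, 1 member was called higher (Gstm6) and 2 lower (Nqo1 and Txnrd3). These are 3 of 55 tested members, beside 2.36% of all tested genes called. Leaving out single libraries gave 0 to 1 member higher and 0 to 3 lower: Ggt7, Nqo1 and Txnrd3 without KO replicate 1, and Gstm6 and Nqo1 without KO replicate 3. All tested genes called under these 2 settings made up 4.23% without KO replicate 1 and 4.93% without KO replicate 3. Members above every wild-type library numbered 10 to 18 (18 without KO replicate 2) with single libraries left out, and members below 5 to 16. Without KO replicate 3 members above and below were 12 and 16, 21.8% and 29.1% of tested members beside backgrounds of 22.1% and 22.7%. For the other libraries left out no background was computed, so the 18 cannot be set against all tested genes. Members below were 8 under quantile scaling, also without a computed background. They were 9 once the length trend, an alternative chosen after seeing the data, was taken out, 16.4% beside 18.2%. Over all genes the count of 32 became 16 and 11 with the pseudocounts, 101 without a filter, 17 at 5 FPKM, 106 with quantile scaling, 302 with library weights, 1 with the replicate block and 6 with normalized counts, and 2 to 631 with single libraries left out (2 without any wild-type library, 541, 17 and 631 without KO replicates 1, 2 and 3). No pairing by replicate number was seen: same-numbered deviations correlated at -0.113, 0.0318 and 0.0797, and the libraries did not all correlate best with their own number. With 3 libraries per group, deviations from a group mean depend on each other, so these correlations cannot exclude a pairing. The cause of these changes was not tested. The planned count model was not run, since whole reads could not be recovered from the normalized counts. Genes below 1 FPKM were not tested, and their values of 0 can be failed estimates.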
